A study of Mus musculus with 4 samples.

Results

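The 36 genes described here are cell cycle genes, taken by name from the 11407 genes of the expression tables, and all 36 were found in both tables. Of these, 13 act in S phase, when DNA is copied, and 21 act in mitosis or the preparation for it. The other 2, Stmn1 and Hmgb2, are also carried by cells that do not divide and were put in neither group. The cells were CD45-positive leukocytes sorted live from mouse mammary tumours. A control plasmid or a plasmid for interleukin 12 (IL-12), a cytokine that activates T cells and NK cells, had been injected into the tumours and delivered by electroporation. Cells of 3 mice were pooled for each treatment, and each pool gave 1 library of expression, read at the 5′ ends of transcripts, and 1 of T cell receptors. The labels do not settle the tumour model: the design text has triple-negative tumours, the growth notes have HER2 switched on in mammary tissue of mice aged 1 month, and the names of the libraries carry 4T1, a mammary carcinoma line. The mouse strain was not given in the sources used here.

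A dividing cell first loads the MCM helicase on its DNA, supplies nucleotides and copies its chromosomes. It then uses cyclins bound to the kinase Cdk1 to enter mitosis, attaches its chromosomes to the spindle and destroys the cyclins through the anaphase-promoting complex. Many S genes are switched on by E2F factors as a cell leaves G1. Many mitosis genes are held down in G1 by the DREAM complex, which binds an element called CHR in their promoters, and are activated there later, often together with NF-Y at nearby CCAAT boxes. T cells that meet their antigen divide fast, tumour macrophages can divide at a lower rate, and neutrophils leave the bone marrow as cells that no longer divide.

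The promoters show how far the S and mitosis genes differ in these elements. The 7 printed belong to S genes with an E2F match or mitosis genes with a CHR match in the bases shown. Promoters with more than 30 of these bases inside an annotated gene were not printed. Each printed promoter is the 160 bases before the start of transcription, taken from RefSeq on GRCm38.p6. It is written 5′ to 3′ on the strand of the gene. Capitals mark the motifs that were searched for on both strands. CHR was searched for as TTTGAA and as TTCGAA, the first of which shows as TTCAAA where it lies on the other strand. The CCAAT box shows as ATTGG where it lies on the other strand. E2F was searched for in 4 forms, namely TTTCCCGC, then TTTGGCGC, then TTTCGCGC and last TTTGCCGC. In Mcm5 and in Mcm6, 2 E2F matches on opposite strands overlap. The first 2 belong to subunits of the replicative helicase, Mcm5 at chr8:75109349-75109508 on the plus strand and Mcm6 at chr1:128359706-128359865 on the minus strand.
Mcm5: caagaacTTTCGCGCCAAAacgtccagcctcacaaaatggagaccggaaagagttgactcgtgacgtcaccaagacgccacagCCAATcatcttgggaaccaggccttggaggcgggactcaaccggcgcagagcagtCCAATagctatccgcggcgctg
Mcm6: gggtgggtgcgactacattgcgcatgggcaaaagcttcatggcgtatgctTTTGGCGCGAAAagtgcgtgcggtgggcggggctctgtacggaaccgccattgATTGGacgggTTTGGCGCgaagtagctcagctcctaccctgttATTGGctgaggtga

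The other 5 belong to mitosis genes with a CHR match. They are Mki67, which coats mitotic chromosomes (chr7:135716380-135716539, minus), Top2a, which untangles DNA (chr11:99024190-99024349, minus), the kinase gene Cdk1 (chr10:69352913-69353072, minus), the spindle motor gene Kif11 (chr19:37376222-37376381, plus) and Cdc20, an activator of the anaphase-promoting complex (chr4:118437344-118437503, minus). The last 26 bases of the Cdk1 stretch and 9 bases of the Cdc20 stretch lie inside the annotated gene.
Mki67: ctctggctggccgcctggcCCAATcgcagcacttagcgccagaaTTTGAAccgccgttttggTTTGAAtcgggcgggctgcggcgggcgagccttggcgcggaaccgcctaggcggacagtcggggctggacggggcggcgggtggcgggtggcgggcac
Top2a: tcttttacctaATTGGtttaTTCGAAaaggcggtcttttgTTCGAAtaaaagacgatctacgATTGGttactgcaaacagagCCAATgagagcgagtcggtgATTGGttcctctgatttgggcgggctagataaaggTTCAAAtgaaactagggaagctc
Cdk1: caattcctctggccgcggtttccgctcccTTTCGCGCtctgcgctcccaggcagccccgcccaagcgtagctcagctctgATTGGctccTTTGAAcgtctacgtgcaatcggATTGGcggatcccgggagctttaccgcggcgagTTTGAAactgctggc
Kif11: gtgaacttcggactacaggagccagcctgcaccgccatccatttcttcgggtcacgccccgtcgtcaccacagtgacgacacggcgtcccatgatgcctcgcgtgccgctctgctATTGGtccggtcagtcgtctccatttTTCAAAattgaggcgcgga
Cdc20: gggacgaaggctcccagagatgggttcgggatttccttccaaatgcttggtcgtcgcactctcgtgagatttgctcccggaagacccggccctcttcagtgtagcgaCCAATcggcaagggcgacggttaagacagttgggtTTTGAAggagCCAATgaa

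Of the 36 genes, 31 had a RefSeq promoter entry, 12 of them S genes and 18 mitosis genes; Mcm4, Ccna2, Stmn1, Aurkb and Tpx2 had none. In the 250 bases before the start, 8 of 18 mitosis genes held a CHR match (44.4%): Ccnb2, Cdc20, Cdk1, Cks1b, Kif11, Mki67, Top2a and Ube2c. Only 2 of 12 S genes did, Mcm2 and Mcm7, against 19.6% of the 27025 genes of the table. A CCAAT box stood in 88.9% of the mitosis genes, 66.7% of the S genes and 37.5% of all genes. All 8 mitosis genes with a CHR match also held a CCAAT box, a pair that 1892 of the 27025 genes held. An E2F match was found in 3 of 12 S genes (25.0%), Mcm5, Mcm6 and Mcm7, in Cdk1 alone among the mitosis genes (5.56%), and in 2.16% of all genes. These are letter matches and not measured sites.

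Depth is counted in unique molecular identifiers (UMIs): 17306854 over the 4232 control cells, 3021 per cell at the median, and 59956933 over the 12979 IL-12 cells, 3418 at the median. The libraries shared 87 cell barcodes. Levels are UMIs summed over the cells of a class and given per 1000000 UMIs in all of that class (CPM). They come from transcript 5′ ends, so no length correction was made. Genes whose reads match several places can be counted too low: Gapdh, a gene every cell uses heavily, stood at 7.31 and 11.9 CPM in CD8 T cells. An order of levels between genes is therefore one of the UMIs as counted. Intervals are exact 95% intervals and cover counting error only. With 1 library per treatment no difference was tested, and differences between mice cannot be told apart from the treatment.

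Cells are grouped by the classes and clusters that the authors deposited. Cd8a stood at 669 CPM in control and 855 CPM in IL-12 CD8 T cells, C1qa at 1449 and 1004 CPM in macrophages, and S100a8 at 55346 and 37491 CPM in neutrophils. The name CD4 T cells goes against the data: in that class Cd8a stood at 429 and 491 CPM and Cd4 at 80.5 and 67.0 CPM. The same holds for the cells called DCs, nearly all of them IL-12 cells of cluster 11, where Flt3 was at 3.7 CPM, Cd209a at 0, Cd3e at 418 CPM and S100a8 at 7136 CPM. Both are named below as the authors' calls. Clusters and libraries are also mixed up with each other: 88.1% of control CD8 T cells were in cluster 8 and 76.2% of IL-12 CD8 T cells in cluster 5, which held 21 control cells.

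In both libraries most cells that carried these genes together were T cells. Each cell was thinned to 1000 UMIs, which left out 198 control and 469 IL-12 cells, and a cell was called cycling with 3 or more UMIs of the 34 S and mitosis genes from at least 2 genes. By this count 78 of 4034 control cells (1.93%) and 536 of 12510 IL-12 cells (4.28%) were cycling, a 2.22-fold higher share. CD8 T cells made up 53.8% of the cycling control cells and 16.1% of all control cells. In the IL-12 library they made up 54.9% of the cycling cells and 26.1% of all cells. Macrophages held 23.1% and 9.33% of the cycling cells, neutrophils 16.7% and 6.90%, although neutrophils were 64.7% and 45.8% of all cells.

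Among CD8 T cells the cycling share was 6.47% in control (42 of 649 cells, 4.70 to 8.65%) and 9.01% in IL-12 (294 of 3264, 8.05 to 10.0%). The 2 intervals overlap, and the ratio of the shares was 1.39 (1.005 to 1.97). Cells near the threshold are many: 147 IL-12 CD8 T cells held exactly 3 UMIs, 46 held 4 and 117 held 5 or more. At 5 or more UMIs the shares were 2.16% and 3.58%. As described below, in CD8 T cells Cenpa, Cks2, Pcna and Dut also stand in cells with few other cell cycle UMIs. The same 4 were left out in every class, though their link to the other genes differed between classes. Without these 4 genes, a choice made after seeing the data, the shares were 2.93% and 4.60%.

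**Figure D1:**
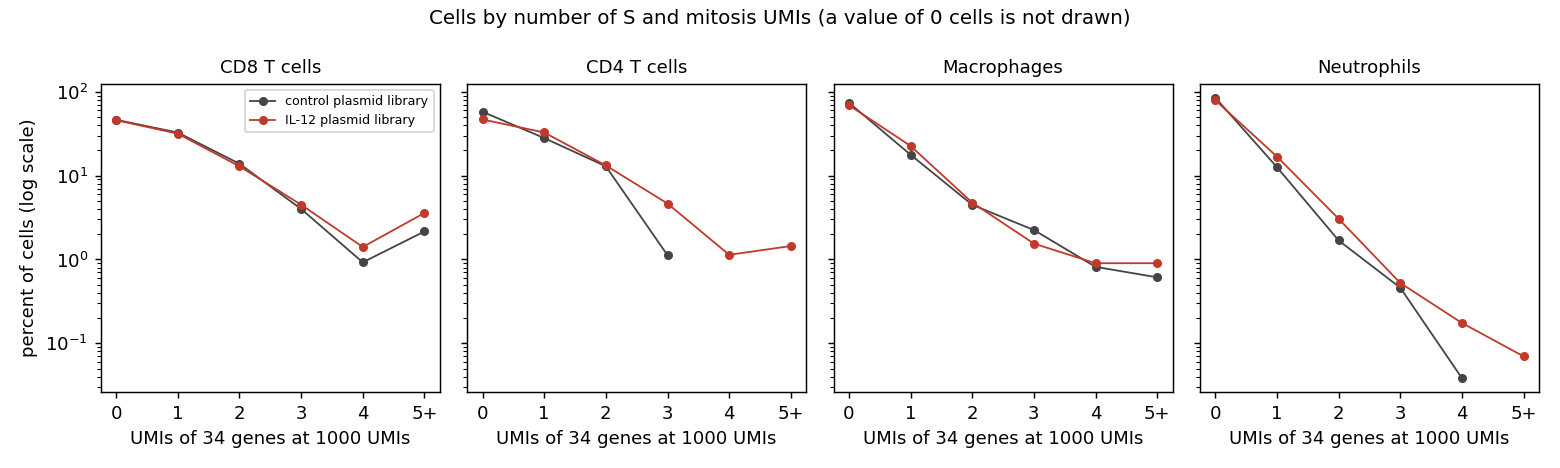
Percent of cells (y axis, log scale) by number of UMIs of the 34 S and mitosis genes after thinning to 1000 UMIs (x axis) in 4 classes as the authors named them, with points joined by lines for the control library in grey and the IL-12 library in red. The curves run down without a gap between cells with few and with many UMIs, and of the 3264 IL-12 CD8 T cells 1497 held none and 117 held 5 or more.

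At the limit of 3 UMIs the class called CD4 T cells had the widest gap between the libraries. Its cycling share was 1.12% in control (2 of 178 cells, 0.136 to 3.9997%) and 7.02% in IL-12 (68 of 968, 5.50 to 8.82%), and the intervals do not overlap. At 5 or more UMIs no control cell was left, which allows a share of up to 1.69% (3 counts of the total), against 1.45% of IL-12 cells. Without Cenpa, Cks2, Pcna and Dut the IL-12 share was 2.58%, again with no control cell. The control value at 3 UMIs rests on 2 cells. With the limit at 2 UMIs the shares were 10.1% in control (18 of 178, 6.10 to 15.5%) and 17.6% in IL-12 (170 of 968, 15.2 to 20.1%). These intervals overlap, so the width of the gap depended on the limit.

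Macrophages had alike shares in both libraries, 3.67% in control (18 of 490, 2.19 to 5.74%) and 3.22% in IL-12 (50 of 1552, 2.40 to 4.23%). Neutrophils, which should hold few dividing cells, gave 0.498% (13 of 2611) and 0.646% (37 of 5728, 0.455 to 0.889%). No control neutrophil and 0.0698% of IL-12 neutrophils held 5 or more UMIs. The class shares of CD8 T cells and macrophages thus stood above the neutrophil level in both libraries at the same 1000 UMIs per cell. The cells called DCs, measured in IL-12 only, had a share of 9.54% (70 of 734, 7.51 to 11.9%). B cells had 3.16% (3 of 95) and 6.44% (17 of 264).

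The highest share lay in cluster 8 of the IL-12 library. There 23 of 67 cells were cycling (34.3%, 23.2 to 46.9%), against 40 of 572 control cells (6.99%). At 5 or more UMIs the IL-12 share of cluster 8 was 17.9%, and without Cenpa, Cks2, Pcna and Dut it was 26.9%. By the authors' class 62 of these 67 cells were CD8 T cells, 1.90% of that class in IL-12, while cluster 8 held most of the control CD8 T cells. Cluster 5, the main IL-12 cluster, had 9.49% (236 of 2488). In cluster 12, the share was 4.96% in IL-12 (35 of 706) and 0 of 54 control cells were cycling, which allows up to 5.56% by the same limit of 3 counts.

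Macrophages lay in a shallow and a deep cluster that differed in their cycling share. Cluster 10 had 7.87% in control (10 of 127) and 9.70% in IL-12 (36 of 371), at median depths of 1190 and 1246 UMIs. Cluster 6 had 2.17% (8 of 368) and 1.19% (14 of 1173), at 8900 and 9333 UMIs. Thinning left out 82 of 209 and 148 of 519 cells of cluster 10. Markers of other cells stood high in it: red cell markers summed to 13779 and 13457 CPM, against 6.64 and 141 CPM in cluster 6, and tumour epithelial markers to 293 and 340 CPM, against 32.9 and 20.3 CPM. In the 10 cycling control cells of cluster 10 red cell and tumour epithelial markers summed to 0, against 18943 and 305 CPM in its other cells kept. In its 36 cycling IL-12 cells they summed to 13.6 and 653 CPM, against 17523.5 and 317 CPM. The part of depth and of these markers in the difference between the clusters was not tested. Among neutrophil clusters, cluster 7 had 2.36% and 1.19%, cluster 1 0.164% and 1.40%, and cluster 2 0.543% and 0.498%. Cluster 3 (IL-12) had 0.469%, cluster 4 (control) 0.365%, and cluster 14 had 0 of 192 control cells and 0.855% of IL-12 cells.

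**Figure D2:**
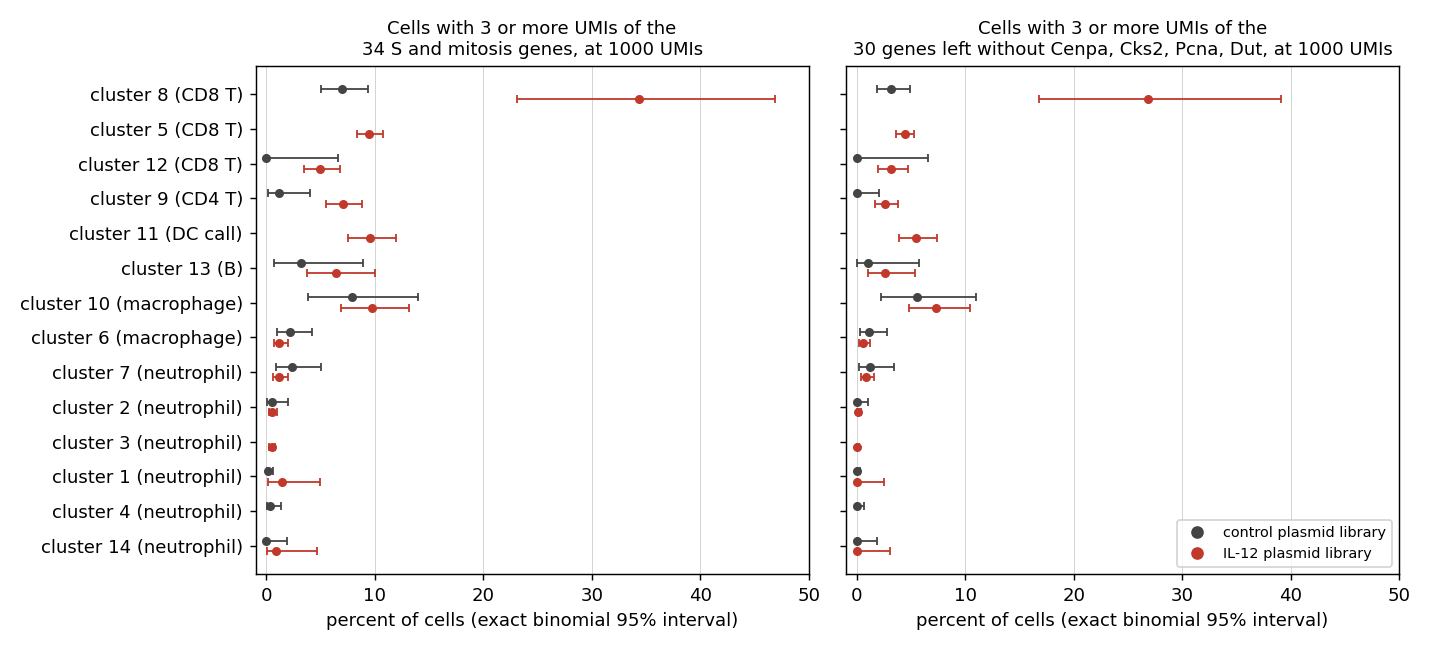
Percent of cells with 3 or more UMIs at 1000 UMIs per cell (x axis) in each authors' cluster (y axis, with the authors' class in brackets), for all 34 genes on the left and for the 30 genes left without Cenpa, Cks2, Pcna and Dut on the right; points are libraries and bars exact binomial intervals. Cluster 8 of the IL-12 library stands highest in both panels, at 34.3% and 26.9%, and the neutrophil clusters lie at 2.36% or below.

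Summed levels gave the same leading cluster for both gene groups. In the IL-12 library the 21 mitosis genes summed to 1796 CPM in cluster 8, 627 in cluster 5, 574 in cluster 11 and 560 in cluster 10, with the last 2 overlapping. Then came clusters 12, 9 and 13 at 432, 398 and 367 CPM, each overlapping the next. The neutrophil clusters 1, 7, 2, 3 and 14 lay between 188 and 114 CPM, with macrophage cluster 6 at 181. Only clusters with 50 or more cells in a library are ordered here. In the control library cluster 8 led with 547 CPM, followed by clusters 10, 9, 13 and 12 between 345 and 236, which overlapped in turn. Cluster 14 was last in both libraries, at 33.3 CPM in control.

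The 13 S genes had a like order, with cluster 8 at 1013 CPM and cluster 5 at 564 CPM in the IL-12 library. Cluster 11 at 437 and cluster 9 at 434 CPM overlapped. Cluster 10, the shallow macrophages, came before clusters 12 and 9 in mitosis genes but after both in S genes, at 289 CPM. Among control clusters of that size the S order was cluster 8 at 478 CPM and then clusters 9, 10, 12 and 13 from 305 to 229, each overlapping the next.

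The balance of S and mitosis genes depended on which genes were summed. S genes made up 46.1% of S and mitosis UMIs in control and 46.5% in IL-12 CD8 T cells, and 45.3% and 45.5% in macrophages. They made up 54.1% and 52.2% in the cells called CD4 T cells, and 39.4% and 37.2% in neutrophils. The intervals of the libraries overlap in each of these classes. Without Cenpa, Cks2, Pcna and Dut the shares were 52.0% and 47.2% in CD8 T cells, 44.0% and 49.6% in macrophages and 40.4% and 33.8% in neutrophils, and in these 3 classes the intervals no longer overlap. The S share was then lower in IL-12 in CD8 T cells and neutrophils and higher in macrophages. In the cells called CD4 T cells it was 67.4% and 61.2%, with overlapping intervals. B cells had 46.9% and 39.7% over all 34 genes and 46.2% and 41.6% without the 4. In cluster 8 the S share was 46.6% in control and 36.1% in IL-12, and in cluster 10 it was 45.6% and 34.01%. Cluster 14 had 40.3% and 21.6%, resting on 72 and 176 UMIs. Cluster 6, the other macrophage cluster, had 45.8% and 47.8%.

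**Figure D3:**
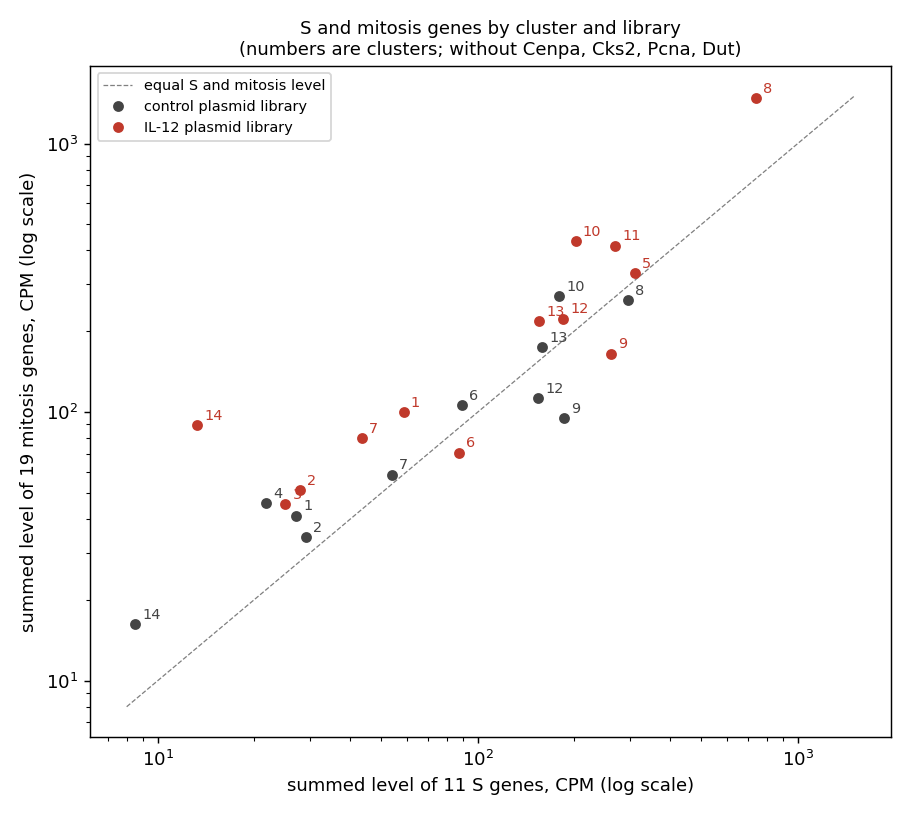
Summed level of 19 mitosis genes (y axis, CPM, log scale) against that of 11 S genes (x axis, CPM, log scale), without Cenpa, Cks2, Pcna and Dut; each point is 1 authors' cluster with 50 or more cells, numbered, in the control library (grey) or the IL-12 library (red), and the dashed line marks equal levels. Cluster 8 of the IL-12 library is the farthest point up and right, at 738 CPM of S and 1476 CPM of mitosis genes, and cluster 9 lies below the line in both libraries.

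Single cycling cells mostly carried both kinds of transcript. Of 294 cycling IL-12 CD8 T cells 231 had UMIs of both groups, 29 of S genes only and 34 of mitosis genes only. In control the numbers were 31, 5 and 6. Of 50 cycling IL-12 macrophages 27 had both, 5 only S and 18 only mitosis genes. In control 2 of 18 had only mitosis genes. In cluster 8 of the IL-12 library no cycling cell had S genes alone, 21 had both and 2 only mitosis genes. At a depth of 1000 UMIs a cell of one group may hold unseen transcripts of the other.

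In all sorted cells 23 of the 36 genes were at least 1.5-fold higher in the IL-12 library, all with intervals that exclude 1, and none was that much lower. By the same rule 16.5% of 11114 genes were higher and 25.0% lower. The median log2 ratio was 0.72 over the 36 genes and -0.12 over all genes. Among other cell cycle genes, 16 of 33 S genes were higher and 1 lower, and 28 of 51 mitosis genes were higher and 1 lower. The share of CD8 T cells differed between the libraries, 16.1% against 26.1% of cells, so the classes are described apart.

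In CD8 T cells 16 of 36 genes were higher in IL-12 by 1.5-fold or more and 2 were lower, beside 14.1% of 9745 genes higher and 37.4% lower. For 13 of the 16 the interval excludes 1; for Aurka, Ccnb1 and Plk1 it does not. The median log2 ratio was 0.32 for the S genes, 0.72 for the mitosis genes and -0.31 for all genes. Summed UMIs differed less, by 1.13-fold for S and 1.12-fold for mitosis genes; Cenpa, the most abundant gene, was 0.96-fold. Without Cenpa, Cks2, Pcna and Dut the sums were 1.01-fold for S and 1.23-fold (1.15 to 1.31) for mitosis genes. Markers of other cells also differed: neutrophil markers summed to 7614 and 11220 CPM, 5 of 6 mast cell markers and 4 of 5 tumour epithelial markers were higher in IL-12, and their part was not tested. Other S genes gave 7 of 33 higher and 2 lower, other mitosis genes 15 of 51 and 5. Of G1 regulators 1 of 13 was higher, Ccnd3, and 3 were lower, and of 12 inhibitors of the cycle none was higher and 3 were lower.

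Of the 5 nucleotide genes Rrm2 and Tyms were higher and none lower, and of the 6 helicase genes Mcm5 was higher and Mcm2 lower. Rrm2 encodes the small subunit of ribonucleotide reductase (gene at chr12:24708241-24714146), which makes deoxynucleotides. It was at 5.80 CPM in control and 19.4 CPM in IL-12 CD8 T cells, 3.35-fold (2.21 to 5.34). Tyms, thymidylate synthase, was at 12.1 and 25.5 CPM, and Dut, which removes dUTP, at 103 and 133 CPM. The large subunit gene Rrm1 was 0.73-fold and Tk1, thymidine kinase, 1.25-fold. Both subunits form one enzyme; the ratio of Rrm2 was above 1 and that of Rrm1 below it.

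The 6 helicase genes Mcm2 to Mcm7 summed to 174 CPM in control and 165 CPM in IL-12 CD8 T cells. Mcm5 was higher, 16.6 to 25.3 CPM (1.52-fold), and Mcm2 lower, 17.6 to 11.7 CPM (0.67-fold), with Mcm6 at 64.8 and 48.7 CPM, Mcm3 at 0.83-fold, Mcm4 at 1.13-fold and Mcm7 at 1.43-fold. The subunits are built into the helicase together, and their transcripts did not move as one. At the replication fork the sliding clamp gene Pcna was at 70.6 and 97.1 CPM, 1.38-fold, and the DNA ligase gene Lig1 was 0.82-fold.

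Genes that drive entry into mitosis held the largest differences in CD8 T cells. Cyclins, Cdk1 and their Cks partners summed to 40.3 CPM in control and 96.1 CPM in IL-12, 2.38-fold (2.03 to 2.82). Ccnb2, a B-type cyclin, was at 2.77 and 11.2 CPM, 4.05-fold (2.23 to 8.21), and Ccna2, cyclin A, at 5.80 and 14.5 CPM. Cdk1 itself was at 7.56 and 15.9 CPM. The genes of the small Cdk partners, Cks1b and Cks2, were 2.44-fold and 2.18-fold. Ccnb1 was 1.54-fold with an interval that holds 1. For Cks2 and Ccnb1, 28.6% and 21.5% of the transcript's 60-base stretches also occur elsewhere in the annotated transcripts, and how the counting treated such reads was not tested.

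The mitotic kinases summed to 9.07 and 18.0 CPM, 1.99-fold (1.41 to 2.88). Aurkb, which corrects faulty attachments of chromosomes, was 2.85-fold, from 2.77 to 7.90 CPM. Plk1, a kinase of mitotic entry, was at 1.51 and 3.15 CPM (0.913 to 5.87-fold, an interval that holds 1). Aurka, at the spindle poles, was 1.64-fold and the checkpoint kinase gene Bub1 1.15-fold. Both genes of the anaphase-promoting complex were higher: its ubiquitin-carrying enzyme Ube2c at 18.4 and 37.0 CPM, and Cdc20 at 3.78 and 6.61 CPM.

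The genes of chromosome and spindle structure differed from these. Mki67 (gene at chr7:135689784-135716361), the standard marker of dividing cells, was at 59.2 CPM in control and 45.1 CPM in IL-12 CD8 T cells, 0.76-fold, and 11.6% and 11.5% of cells held a UMI of it. Top2a was at 71.3 and 62.8 CPM, 0.88-fold. The spindle motor gene Kif11 was lower, 20.4 to 12.1 CPM (0.59-fold), the spindle gene Nusap1 0.82-fold, and Tpx2, which activates Aurora A on the spindle, 1.47-fold. Apart from Tpx2, these genes had ratios below 1 in CD8 T cells, while those of the cyclins and Cdk1 were above 1.

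At the centromere, Cenpa, which encodes the histone H3 variant that marks the site, was the most abundant of the 34 genes, with 258 and 248 CPM. The kinetochore genes Cenpe and Cenpf were 1.19-fold and 1.43-fold. Birc5 (survivin), which works with Aurkb at the centromere, was 2.48-fold, from 9.32 to 23.1 CPM. Of the genes in neither group, the microtubule regulator Stmn1 was at 5.80 and 12.1 CPM, 2.09-fold, and Hmgb2, a DNA-bending chromatin protein, at 125 and 154 CPM, 1.23-fold. For these 2 genes 17.3% and 18.0% of 60-base stretches are shared with other transcripts.

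**Figure D4:**
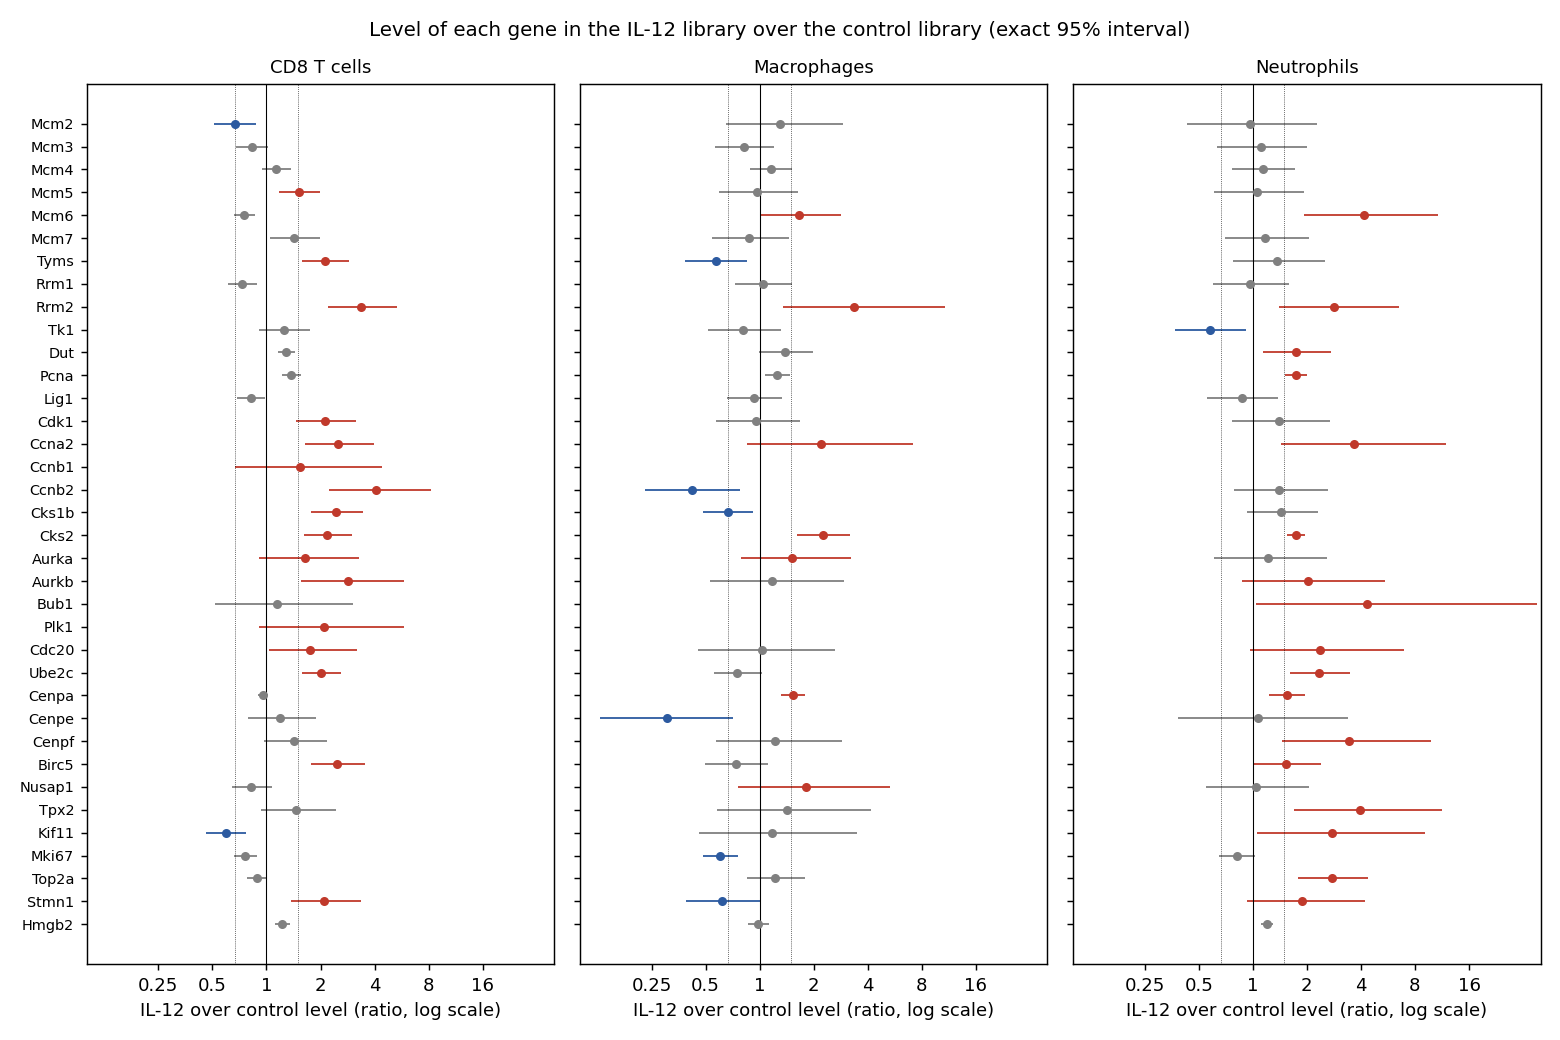
Level in the IL-12 library over that in the control library (x axis, ratio, log scale) for each of the 36 genes (y axis, ordered by role) in CD8 T cells, macrophages and neutrophils; bars are exact 95% intervals, solid lines mark 1 and dotted lines 1.5-fold either way, red is higher, blue lower and grey between. In CD8 T cells the cyclins and Cdk1 partners lie right of 1 and Kif11 and Mcm2 left of it, and in macrophages Mki67, Tyms, Ccnb2 and Cenpe lie left of 1.

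CD8 T cells of the libraries sit in different clusters, so the main clusters were also set side by side. Between cluster 8 of control and cluster 5 of IL-12, Ccnb2 was 8.03-fold, Ube2c 3.25-fold, Cks1b 3.12-fold and Rrm2 2.98-fold higher in IL-12. Mki67 was 0.65-fold and Kif11 0.54-fold. The same split between cyclin and chromosome genes was seen there. It is no separate support, since these clusters held 88.1% of control and 76.2% of IL-12 CD8 T cells. Within cluster 8 itself both kinds were higher in the 67 IL-12 cells. Mki67 was at 65.1 CPM in control and 362 CPM in IL-12, Top2a at 75.0 and 379.5, Ube2c at 12.6 and 125, Mcm5 at 17.4 and 111, and Cenpf at 7.80 and 73.1. S genes summed to 2.12-fold and mitosis genes to 3.28-fold.

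The class called CD4 T cells had 22 of the 36 genes measured, that is with 20 or more UMIs over both libraries. Of these 11 were higher in IL-12 and none lower, beside 19.0% and 18.9% of 6931 genes. The interval excludes 1 for 3 of them. Mcm4, a helicase subunit, was at 10.1 and 37.3 CPM (3.71-fold, 1.54 to 11.7), Pcna at 62.4 and 95.2 CPM and Cks2 2.19-fold. For the other 8 the control class held few UMIs. Birc5 rested on 1 control UMI (2.01 and 9.14 CPM), and Mki67 was at 8.05 and 20.9 CPM (0.960 to 9.88-fold). S genes summed to 1.43-fold and mitosis genes to 1.54-fold.

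In cluster 13, which holds the B cells, 22 genes were measured, 9 higher and 2 lower in IL-12, beside 20.1% and 31.7% of 6880 genes. The higher ones were Tyms, Lig1, Top2a, Cdk1, Ube2c, Cenpa, Cenpf, Cks1b and Cks2, and the lower ones Tk1 and Cenpe. The intervals of Tyms, Lig1, Cdk1, Cenpf and Cks2 hold 1, and those of the other 6 exclude it. Markers of other cells moved in the same cluster: of the tumour epithelial markers 4 of 7 measured were higher in IL-12 and none lower, and of the mast cell markers 5 of 6 were higher. Their part in the levels of the cell cycle genes was not tested.

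Macrophages had 33 of 36 genes measured, 7 higher and 6 lower in IL-12, beside 13.7% and 22.5% of 9162 genes. The share lower is close to that of all genes. In the same class all 9 T cell markers and 6 of 8 dendritic cell markers were higher in IL-12, the T cell markers summing to 134 and 608 CPM. Without cells that hold markers of another class 2 genes were higher, Rrm2 and Cks2, and 6 lower. The higher ones with an interval above 1 were Rrm2 (3.34-fold), Cks2 (11.3 to 25.3 CPM), Mcm6 (1.65-fold) and Cenpa (56.3 to 86.2 CPM), and the others were Ccna2, Nusap1 and Aurka. The lower ones were Mki67, at 33.2 and 20.03 CPM (0.60-fold), Tyms (0.57-fold), Ccnb2 (0.42-fold), Cenpe (0.30-fold), Cks1b (0.66-fold) and Stmn1 (0.62-fold, with an interval that reaches 1). The sum of all 21 mitosis genes was 1.11-fold (1.02 to 1.20). Without Cenpa, Cks2, Pcna and Dut, left out after seeing the data, it turned to 0.80-fold (0.72 to 0.90). The S sum went from 1.11-fold to 1.01-fold. The macrophage clusters differed: in cluster 6 the mitosis sum was 1.04-fold with all genes and 0.67-fold without the 4, and in cluster 10 it was 1.62-fold and 1.60-fold. Ccnb2 and Rrm2, both higher in IL-12 CD8 T cells, thus lay on opposite sides in macrophages.

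Neutrophils had 34 genes measured, 17 higher and 1 lower, beside 15.2% and 35.5% of 8563 genes. The interval excludes 1 for 14 of the higher ones and for Tk1, the lower one (0.58-fold). All 9 T cell markers and 5 of 6 mast cell markers were also higher in IL-12 neutrophils and 5 of 10 neutrophil markers lower, and their part was not tested. Without cells that hold markers of another class 15 genes were higher and 1 lower. All levels but a few were low. Cks2 was the most abundant of the 34 genes, at 42.9 and 74.5 CPM, followed by Pcna at 30.7 and 53.6 CPM. Top2a was at 2.91 and 7.99 CPM, Ube2c at 4.08 and 9.53 CPM and Mcm6 at 0.815 and 3.41 CPM, while Mki67 was at 13.7 and 11.2 CPM. Other S genes gave 14 of 28 higher and 3 lower, other mitosis genes 10 of 31 and 6. Mki67 UMIs were found in 3.27% and 2.83% of neutrophils, against 11.6% and 11.5% of CD8 T cells, at median depths of 2524 and 2553 against 5794 and 6434 UMIs.

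T cell transcripts in neutrophils are 1 measure of RNA from other cells in this class. They stood at a median of 1.42% of their CD8 T cell level in control (0.684 to 2.61%) and 2.28% in IL-12 (1.81 to 2.59%). The cell cycle genes stood at medians of 17.2% and 17.8%. Single genes ranged from 1.26% to 347% in control and from 4.40% to 277% in IL-12, with Cks2 highest in both. Hmgb2 was at 79.4% and 77.6% and Pcna at 43.6% and 55.2%. The cell cycle genes therefore did not keep the ratio to CD8 T cells that T cell transcripts had. Other sources were not covered by this measure: macrophage markers summed to 773 and 900 CPM in neutrophils, against 11890 and 7914 CPM in macrophages.

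Whether a gene's UMIs lie in cells that carry the other cell cycle genes separates the members further. For each gene, the level of the rest in cells with a UMI of it was divided by that in cells without one. The rest were the other genes of the 34, without Cenpa, Cks2, Pcna and Dut. In IL-12 CD8 T cells the ratio ranged from 1.78 to 9.86, with a median of 4.35 for S and 6.71 for mitosis genes. Ccna2 (9.86), Cenpf (9.23), Plk1 (9.16), Bub1 (8.91) and Birc5 (8.82) led, and Mki67 had 6.49 and Top2a 4.38. Lowest were Cenpa (1.78), Cks2 (1.84), Dut (2.30) and Pcna (2.34). Cells with a UMI of a gene were also deeper, for Ccna2 9151 against 6333 UMIs at the median, and the part of depth in these ratios was not tested.

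In control CD8 T cells 32 genes were seen in at least 10 cells, with a median ratio of 3.92. Pcna, Mcm6, Dut, Cenpa and Cks2 were below 2. Of 377 IL-12 CD8 T cells with an Mki67 UMI 46.7% also had Top2a, against 17.9% of the others, and 32.4% against 2.32% had Birc5. Cenpa was found in 70.0% and 63.0%, nearly alike. Of 145 cells with Ccna2 71.0% had Mki67, against 8.78% of the rest. A cell with Ccna2 was thus mostly a cell with Mki67, while a cell with Cenpa was not marked in this way.

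**Figure D5:**
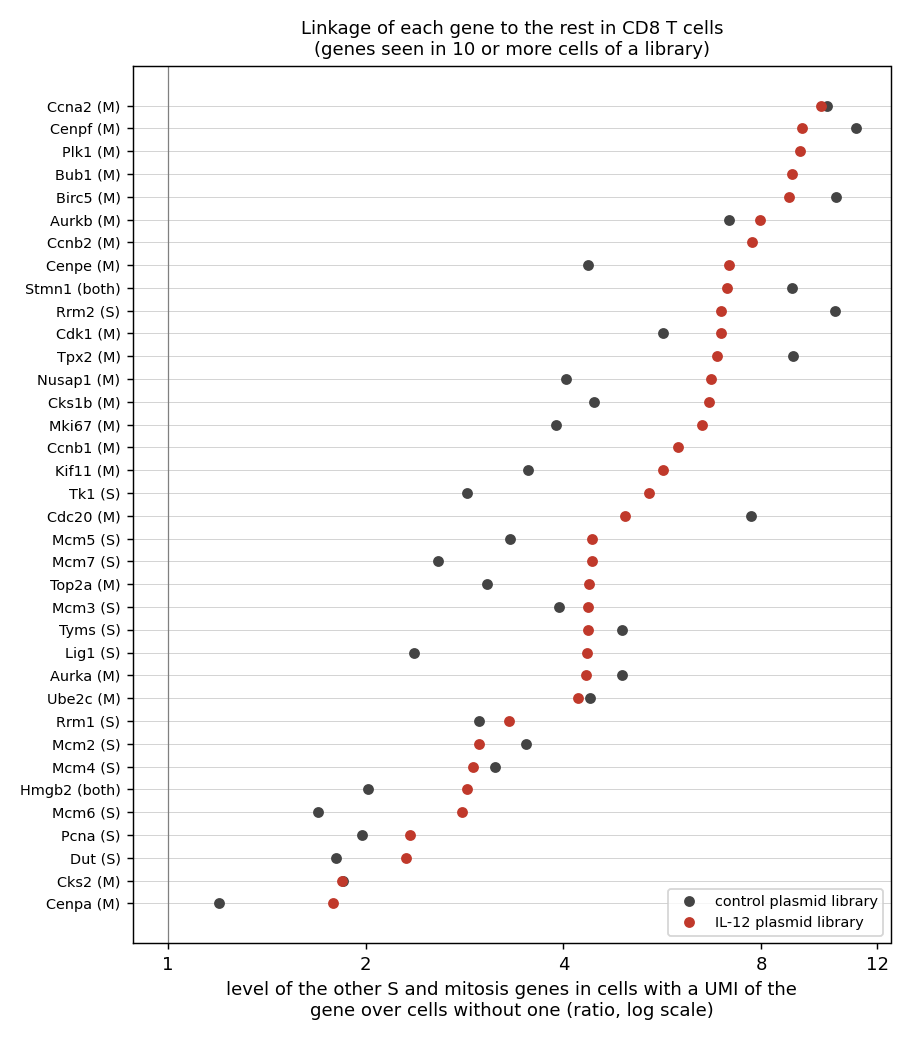
Ratio of the level of the other S and mitosis genes in CD8 T cells with a UMI of the gene to that in cells without one (x axis, log scale) for each gene (y axis, with S, M for mitosis or both), in control (grey) and IL-12 (red), drawn where at least 10 cells of a library held the gene. Cenpa and Cks2 sit at the bottom in IL-12, at 1.78 and 1.84, and Ccna2 at the top, at 9.86.

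The class called CD4 T cells differed in this measure. In its IL-12 cells all 13 S genes had ratios below 2 (median 1.39), while the mitosis genes had a median of 3.01 and Ccna2 and Birc5 were at 5 or more. In this class the S transcripts were spread over cells with few other cell cycle UMIs. In IL-12 macrophages the median was 3.45, from Pcna at 0.911 to Cenpe at 14.1, the latter from 11 cells. In IL-12 neutrophils it was 4.72, with Cks2 lowest at 0.907. Cks2, the most abundant of the 34 genes in neutrophils, was thus not linked to the rest there. Of the 4 genes left out of the smaller set, Dut had 2.71 in control and 2.54 in IL-12 macrophages, and 4.43 and 3.70 in neutrophils. Cenpa had 1.51 and 3.15 in neutrophils. Pcna was below 2 in both classes and libraries, and so was Mcm4, which was kept. Mki67 had 1.96 and 2.46 in macrophages and 1.90 and 3.10 in neutrophils, below its 6.49 in IL-12 CD8 T cells.

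Within CD8 T cells, the cycling cells were compared with the others for genes outside the 34. The cells were chosen by the 34 genes, so the levels of these only describe the choice: Mki67 was at 642 against 17.0 CPM in control and 316 against 14.05 CPM in IL-12, Ccna2 at 56.0 against 2.16 and 118 against 2.65, and Cenpa at 485 against 242 and 374 against 233. By 1.5-fold or more, 10.2% of 8744 genes were higher in cycling control cells and 4.69% in cycling IL-12 cells, and 255 genes in both. Other mitosis genes were higher in both for 43 of 47, other S genes for 19 of 31, G1 regulators for 4 of 13 (Ccne2, Cdk2, Cdk4 and E2f2) and inhibitors for 3 of 11 (Cdkn2a, Cdkn2c and Rbl1). None of 24 genes of CD8 T cell state and none of 9 T cell genes was higher in both.

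The 10 genes outside the list with the largest excess in both libraries were replication and chromosome genes. They were Pclaf, which binds PCNA, the histone genes H1f5, H2ac8, Hist1h2ao, Hist1h2an and H3c11, the cohesin acetylase gene Esco2, the kinetochore gene Knl1, the tubulin gene Tubb5 and the checkpoint adaptor gene Clspn. Pclaf was at 198 against 5.41 CPM in control and 332 against 12.3 CPM in IL-12. Hist1h2ao was at 1235 against 132 and 4292 against 289 CPM, and Tubb5 at 1134 against 185 and 1230 against 214 CPM. Hmgb2, not used to choose the cells, was at 414 against 104 and 544 against 109 CPM.

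Genes of T cell state differed in part between cycling and other CD8 T cells. Ccl5, a chemokine of effector cells, was at 922 CPM in cycling and 2350 in other control cells, and at 4802 and 6843 CPM in IL-12. At the median a cycling control cell held 2.5 UMIs of Ccl5 and another control cell 2, so the pooled difference in control was not that of the median cell. In IL-12 the medians were 8.5 and 14. Gzma, a granzyme, was at 1437 and 1397 CPM in control and at 975 and 608 CPM in IL-12, with a median of 0 UMIs in each group. The checkpoint receptor gene Pdcd1 was at 530 and 585 CPM in control and 664.5 and 724 CPM in IL-12, and Ifng at 44.8 and 94.9, and 379 and 282 CPM. Neutrophil markers were lower in cycling cells, all 10 of 10 in both libraries, beside 169 of 8744 genes lower in both. Within cluster 8 these markers summed to 1483 against 1719 CPM in control and 1030 against 2677 CPM in IL-12. Control cluster 12, where they summed to 54412 CPM, held no cycling cell. S100a8 was at 608 and 3190 CPM in control and 1245 and 4550 CPM in IL-12. The median depth of cycling and other cells was 5885 and 5792 UMIs in control, 7294 and 6378 in IL-12. The part of neutrophil RNA in the difference between cycling and other cells was not tested.

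Markers of other cells stood in the other cycling classes. The 50 cycling IL-12 macrophages had a median depth of 2642 UMIs against 8002 in the rest. Their T cell markers summed to 1501 against 583 CPM and their tumour epithelial markers to 266 against 37.0 CPM, of which Wfdc2 gave 24 UMIs in 3 cells. Their neutrophil markers summed to 3489 against 9486 CPM. Of these 50 cells 36 lay in the shallow cluster 10 and 14 in cluster 6. Within cluster 10 the median depth was 1425 against 1598 UMIs. T cell markers there summed to 775 against 520 CPM and tumour epithelial markers to 653 against 317 CPM. Within cluster 6 the depth was 8149 against 9372 UMIs, and these sums were 1940 against 580 CPM and 32.9 against 20.2 CPM. In the 37 cycling IL-12 neutrophils the neutrophil markers summed to 65016 against 108707 CPM and the macrophage markers to 2286 against 892 CPM. Markers of immature neutrophils summed to 12158 against 3710 CPM. Of Ngp, 868 UMIs lay in 5 of the 37 cells, 865 of them in 2. Among the 5691 other neutrophils 592 held Ngp. Lcn2 was seen in 14 cycling cells and in 2474 others. Camp and Prtn3 lay in 3 cycling cells each, Ltf and Chil3 in 2 each, and Fcnb and Cebpe in 1 each. Elane, Mpo, Ctsg and Ms4a3 gave no UMI in the cycling cells. In cycling B cells the tumour epithelial markers summed to 5683 against 625 CPM in control and 2140 against 1392 CPM in IL-12. The part of cells or RNA of another type in these cycling shares was not tested.

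In cluster 8 of the IL-12 library the 23 cycling cells carried Cd8a at 576 CPM against 807 in the other cells, and Cd3e at 576 against 765 CPM. Gzma was at 1919 against 63.7 CPM, in 17.4% and 6.8% of cells. The NK cell markers Ncr1 and Klrb1c gave no UMI in the cycling cells or in the others. All NK cell markers searched for, Gzma among them, summed to 2081 against 202 CPM. Of the regulatory T cell markers, Foxp3 gave no UMI in the cycling cells, and Ikzf2 was at 354 against 420 CPM.

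The authors deposited a cell cycle phase for the cells with a T cell receptor, 483 in control and 3310 in IL-12. They called 157, 159 and 167 control cells G1, S and G2M, and 596, 1586 and 1128 IL-12 cells. Of the cells they called G1 1.91% and 1.52% were cycling by the count above, of those called S 12.6% and 8.64%, and of those called G2M 7.19% and 10.6%. S genes made up 57.8% and 59.4% of S and mitosis UMIs in the S cells and 35.4% and 33.0% in the G2M cells. The authors deposited S and G2M scores beside the phase, and calls made from such scores would differ in this balance by construction. The balance is therefore no separate check of the calls. Most cells called S or G2M held fewer than 3 of these UMIs at 1000 UMIs per cell.

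Cycling shares were also taken by clone, as the authors marked clones expanded or not. In IL-12 CD8 T cells with an expanded clone the share was 8.17% of 2239 (7.07 to 9.39%). With a clone that was not expanded it was 10.2% of 578 (7.86 to 12.97%), and with no clone recorded 11.6% of 447 (8.81 to 15.0%). The first 2 intervals overlap. Without Cenpa, Cks2, Pcna and Dut, a choice made after seeing the data, they are narrowly apart. The shares were then 3.80% (3.04 to 4.67%) with an expanded and 6.57% (4.69 to 8.91%) with a not expanded clone. These intervals take each cell as independent, and how far cells of the same clone are alike was not tested. In control CD8 T cells the shares with all genes were 5.59% of 179, 8.89% of 270 and 8 of 200 cells. Without the same genes they were 2.79% (0.913 to 6.40%) with an expanded and 3.70% (1.79 to 6.71%) with a not expanded clone, and these intervals overlap. Among the IL-12 cells called CD4 T cells the shares with all genes were 6.93% of 231, 3.95% of 304 and 9.24% of 433. Without the same genes they were 1.30% with an expanded and 0.658% with a not expanded clone. The order of these shares was thus the reverse of that in CD8 T cells, with overlapping intervals.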

How the data were processed

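The 36 genes and all gene lists were chosen with earlier results of these data known. Per the submitters' processing notes, Cell Ranger 2.1.0, STAR 2.6.1, Partek, of a version not stated there, and mm10 were used. The authors deposited cells by genes as log2 of CPM plus 1, which was read from the values. The phase and other receptor-cell columns are also deposited by the authors, and no score was used. UMIs were recovered by undoing the log2 and dividing by a cell's smallest value above 0; all but 6 of 4251108 and 13 of 13883686 values were whole within 0.1. The genes of the tables held 72.9% and 70.4% of UMIs. Shares have exact binomial and ratios exact Poisson 95% intervals. A gene was measured with 20 UMIs over both libraries and called at 1.5-fold; a pseudocount of 10 CPM was used only between cycling and other cells. All 36 genes are named; outside them, list examples and the 10 genes with the largest smaller-of-both ratio. Python 3.11.15, numpy 2.4.6, pandas 2.3.3, scipy 1.17.1 and matplotlib 3.10.9 were used, and the code was tested on simulated data. Gene positions are GENCODE vM21 on GRCm38, the build called mm10.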

Additional observations from a re-analysis of the deposited data

How the results depend on the processing

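With 1 library per treatment no difference has a replicate check, and depth limits what 1000 UMIs of a cell can show. No paired analysis was possible because each treatment has 1 library. No called gene changed direction under the alternatives run, but differences of S share did: in CD8 T cells control stood just below IL-12 with all genes and above it under both smaller gene sets. The share of all cells called cycling was 3.03-fold higher in IL-12 at 5 UMIs and 3.88-fold higher without cells that hold markers of another class. Without the 2 leading genes of each group the S share was 58.4% and 50.2% in control and IL-12 CD8 T cells, 71.5% and 63.6% in the cells called CD4 T cells, 46.8% and 48.0% in macrophages and 41.0% and 33.8% in neutrophils. Without Cenpa, Cks2, Pcna and Dut it was 52.0% and 47.2%, 67.4% and 61.2%, and 44.0% and 49.6% in control and IL-12 macrophages and 40.4% and 33.8% in neutrophils. At 2-fold in place of 1.5-fold, 10 genes were higher in all cells, 0 were lower in CD8 T cells, 7 were higher in the cells called CD4 T cells, 3 were higher and 2 lower in macrophages, and 11 were higher and 0 lower in neutrophils. With 50 UMIs as the minimum 5 were higher in the cells called CD4 T cells. Without cells that hold markers of another class 2 were higher in macrophages, and without clusters 11 and 12 1 was lower in CD8 T cells. Beyond the construction of each alternative the cause was not tested. The alternatives without the 4 genes, without clusters 11 and 12 and without T cells and DCs with 1% neutrophil UMIs were chosen after seeing the data. T cell classes without cells holding markers of another class were not run, since too few control cells were left, and the cells called CD4 T cells have no fold at 5 UMIs, with no control cell.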
